A study of Mus musculus with 2 samples.

Results

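The genes described here encode the long- and medium-chain acyl-CoA synthetases of mouse liver, the Acsl and Acsm families, together with the short-chain enzyme Acss3. They were taken by gene symbol from a list of 10, and a gene was used where the array annotation gave a probe set that symbol alone. By this rule 7 of the 10 genes were found, with 8 probe sets, among 22180 genes in all. They are Acsl4, Acsl5, Acsl6, Acsm1, Acsm2, Acsm5 and Acss3. Acsl1 had no probe set under its own symbol in the annotation used, and the probe sets that name Acsl3 or Acsm3 name a second gene as well, so these 3 genes were not analysed here.

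The 2 arrays carried liver RNA of male mice with a whole-body knockout of Iah1 (KO) and of male Iah1 wild-type mice (WT), 1 array per genotype, each loaded with the pooled RNA of 3 mice. Both genotypes received chow until 6 weeks of age and then a high-fat diet for 12 weeks, lived 1 to a cage, and had been without food for 4 hours at tissue collection. The sources used here do not give the strain. Every value below is thus a single measurement of a pool, no test between genotypes was possible, and higher or lower refers to these arrays only. Iah1 itself was at 3.90 in KO and 8.59 in WT on the log2 scale.

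An acyl-CoA synthetase joins a fatty acid to coenzyme A at the cost of ATP, and the acyl-CoA it makes is the form in which the cell can oxidise, elongate, esterify or conjugate that acid. The long-chain enzymes sit on the endoplasmic reticulum, the outer mitochondrial membrane, peroxisomes and lipid droplets, and differ in the chains they prefer. The medium-chain enzymes of the Acsm family lie in the mitochondrial matrix and also activate carboxylic acids such as benzoate, which liver then couples to glycine. Acss3 is a mitochondrial enzyme with a preference for propionate.

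None of the 5 measurable acyl-CoA synthetases, out of 10 listed, reached a 1.5-fold difference between KO and WT. Acsl1, Acsl3 and Acsm3, which were not analysed, are not covered by this. The log2 differences (KO minus WT) of the 5 measurable genes were not all on the same side of 0. They were -0.32 for Acsl4 and 0.25 for Acss3, while Acsl5, Acsm1 and Acsm5 lay between -0.08 and 0.01. Values are log2 signals as made by RMA, which summarises the short probes of a probe set after making the arrays' distributions equal, and levels of different probe sets cannot be set against each other. A gene counted as measurable where the higher of its 2 values reached 4.68, the median of that quantity over all genes. This filter was passed by 5 of the 7 genes, each of them on both arrays, and by 11090 genes in all. Of those 5, 0 were higher and 0 lower by 1.5-fold, where 1.47% of all genes above the filter were higher and 2.45% lower. With 3.92% of all genes past the threshold in either direction, a count of 0 among 5 is no result about these genes. Their median difference was -0.06, beside -0.02 over all genes above the filter.

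**Figure D1:**
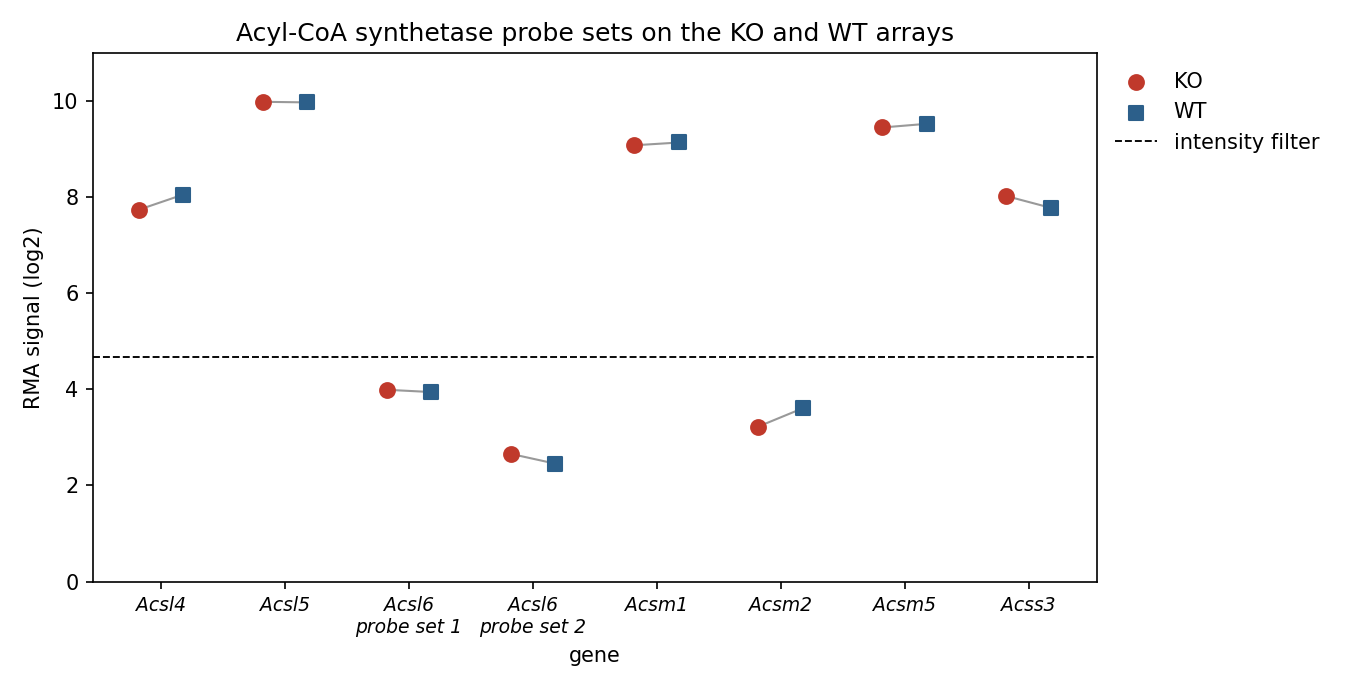
RMA signal (log2, vertical axis) of each acyl-CoA synthetase probe set on the KO array (circle, left) and the WT array (square, right), 1 array per genotype and no error bars. Acsl4 is at 7.74 in KO and 8.05 in WT, Acss3 at 8.02 in KO and 7.78 in WT, and the probe sets of Acsl6 and Acsm2 lie below the filter (dashed line, 4.68) on both arrays.

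Among the long-chain enzymes, Acsl4 prefers arachidonate and other polyunsaturated acids and thereby feeds them to membrane phospholipids, a step known for its part in ferroptosis. Its probe set (17545051) had a log2 signal of 7.74 in KO and 8.05 in WT. The KO signal was thus 80.3% of the WT signal, a log2 difference of -0.32. Differences scatter less among bright genes, so each gene was also set beside genes of like signal, in 4 equal groups by mean signal. All 5 measurable synthetases fell in the brightest of these groups, 2773 genes in which the SD of the difference was 0.16. This group spans mean signals from 7.63 to 13.3, and Acsl4, at 7.90, lies near its lower bound. In the next dimmer group the SD was 0.20. In the brightest group 4.58% of genes differed by at least as much as Acsl4 in either direction, and 3.35% had a lower difference. Among all genes above the filter 17.5% differed by at least as much. The SD of 0.16 describes the spread over the different genes of the brightest group. A measure of error comes from the 45 genes with several probe sets of this brightness. In these, the difference of a single probe set had an SD of 0.11 around its gene's mean. This SD leaves out the spread between mice and between hybridisations, and the Acsl4 value rests on 1 probe set.

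Acsl5, a long-chain enzyme of the endoplasmic reticulum and mitochondrial surface that is induced in liver by the lipogenic factor SREBP-1c, had nearly equal signals. Its probe set (17360462) was at 9.98 in KO and 9.97 in WT, a difference of 0.01, and 91.3% of the genes in the brightest group lay at least as far from 0. Elovl6 and Scd1, which the same factor induces, differed by 0.31 and 0.25. Whether SREBP-1c bears on any of these values was not tested. Acsl6, best known from brain, where it enriches membranes in docosahexaenoate, had 2 probe sets. They were at 3.99 and 2.66 in KO and at 3.94 and 2.45 in WT. All 4 values were below the filter, so that no fold is given and Acsl6 was not shown to be measurable in this liver RNA.

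The Acsm genes lie together on chromosome 7, in the order Acsm5, Acsm2, Acsm1, Acsm4 and Acsm3 by the RefSeq annotation of GRCm38.p6. Acsm1, which activates butyrate and medium chains, was at 9.08 in KO and 9.14 in WT (probe set 17482272). Its difference of -0.06 is within the SD of 0.16 for genes of its brightness. Acsm5, a less studied member of the family, was at 9.45 in KO and 9.53 in WT (probe set 17482230), a difference of -0.08, and 51.5% of the brightest genes lay at least as far from 0. Acsm2, which in mouse is known from the kidney, was at 3.23 in KO and 3.61 in WT, both below the filter (probe set 17482247). The family consists of related sequences, and how far their probes share signal was not tested.

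Acss3, the propionate-preferring mitochondrial enzyme encoded on chromosome 10, was the highest of the measurable synthetases by difference. Its probe set (17244705) was at 8.02 in KO and 7.78 in WT, 1.19-fold higher in KO or 0.25 on the log2 scale. In the brightest group 9.20% of genes lay at least as far from 0, and 97.0% had a lower difference. Its mean signal of 7.90 is near the lower bound of that group. Among all genes above the filter 26.3% lay at least as far from 0. The value again rests on 1 probe set.

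**Figure D2:**
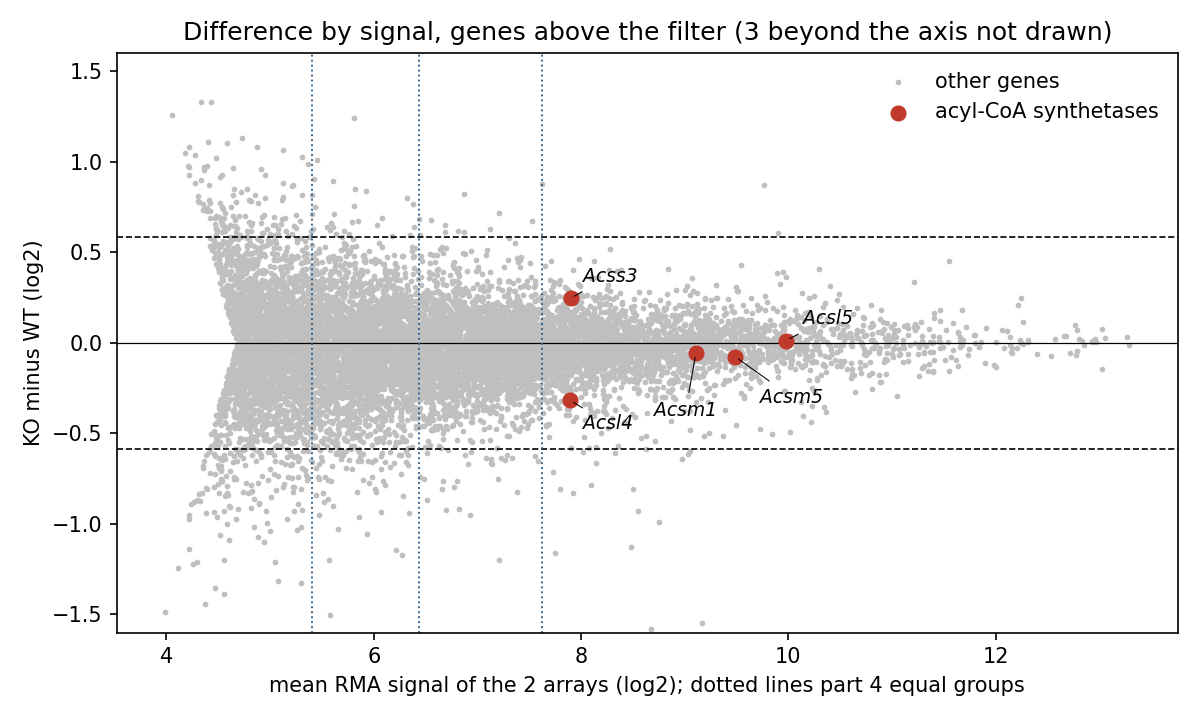
Difference KO minus WT (log2, vertical axis) against the mean RMA signal of both arrays (log2, horizontal axis) for the 11090 genes above the filter (grey) and the 5 acyl-CoA synthetases among them (red), with 1.5-fold as dashed lines and the bounds of 4 equal signal groups dotted. The scatter narrows with signal, Acsl4 and Acss3 lie towards the lower and upper edge of the cloud, and Acsl5, Acsm1 and Acsm5 lie near its centre.

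The promoters of the 4 measurable Acsl and Acsm genes are shown because these genes lie in different sequence settings, with Acsl4 apart from the others. Each line gives 250 bases before the transcription start from RefSeq (GRCm38.p6), 5′ to 3′ along the gene, with matches to any of 4 motifs in capitals.
Acsl4 (chrX:142390536-142390785, - strand): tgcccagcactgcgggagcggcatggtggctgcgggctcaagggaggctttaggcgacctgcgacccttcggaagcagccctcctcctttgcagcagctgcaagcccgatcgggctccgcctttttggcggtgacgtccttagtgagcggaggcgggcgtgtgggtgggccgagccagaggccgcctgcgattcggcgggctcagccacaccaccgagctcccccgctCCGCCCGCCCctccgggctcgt
Acsl5 (chr19:55253119-55253368, + strand): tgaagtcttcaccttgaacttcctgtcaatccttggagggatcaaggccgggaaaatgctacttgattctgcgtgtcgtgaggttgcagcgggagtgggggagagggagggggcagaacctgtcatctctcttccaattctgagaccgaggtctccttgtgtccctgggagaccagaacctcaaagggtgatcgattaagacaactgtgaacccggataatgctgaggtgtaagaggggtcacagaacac
Acsm1 (chr7:119617562-119617811, + strand): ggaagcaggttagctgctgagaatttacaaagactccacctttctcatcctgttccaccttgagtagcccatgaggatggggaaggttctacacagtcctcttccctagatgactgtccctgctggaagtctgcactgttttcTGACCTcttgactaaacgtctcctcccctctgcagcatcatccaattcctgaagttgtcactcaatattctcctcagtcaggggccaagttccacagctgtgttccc
Acsm5 (chr7:119526015-119526264, + strand): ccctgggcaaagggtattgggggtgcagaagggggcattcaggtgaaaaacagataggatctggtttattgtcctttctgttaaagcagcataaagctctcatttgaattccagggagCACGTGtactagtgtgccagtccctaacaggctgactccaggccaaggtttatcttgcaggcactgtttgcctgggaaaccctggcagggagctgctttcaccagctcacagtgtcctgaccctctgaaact
The motifs searched on both strands were the GC box GGGCGG, the TATA box TATAAA, the nuclear receptor core motif AGGTCA and the E-box CACGTG. Acsl4 had 25 CG dinucleotides, more than 89.3% of the 32851 promoter windows, and 2 overlapping GC boxes at 22 to 17 and 18 to 13 bases before the start, a motif held by 32.7% of windows. Acsl5 had 7 CG dinucleotides and none of the motifs. Acsm1 and Acsm5 had 1 CG dinucleotide each, fewer than the median of 6. Acsm1 held 1 nuclear receptor core motif at 107 to 102 bases before the start, which 14.0% of windows hold, and Acsm5 held 1 E-box at 132 to 127 bases, which 6.02% hold. These matches describe the letters only, and no factor binding was measured.

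The list of other enzymes that make acyl-CoA held 14 genes, all measured, of which 8 passed the filter. These 8 lay between -0.09 and 0.13. None was past 1.5-fold, 4 were above 0 and 4 below, and the median was -0.01. The largest difference was that of Acss2, the cytosolic enzyme that makes acetyl-CoA from acetate, at 8.10 in KO and 7.97 in WT (0.13). Acsf3, the mitochondrial malonyl-CoA synthetase, differed by 0.09. The fatty acid transport proteins Slc27a4 and Slc27a1, which also activate very long chains, differed by -0.09 and -0.08. The 6 genes below the filter on both arrays were Acsm4, Acsbg1, Acsbg2, Acss1, Slc27a3 and Slc27a6, and their RMA differences, between -0.35 and 0.39, are not read here.

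Genes for the proteins that bind acyl-CoA or first use it were mostly a little higher in KO. Of 27 genes 24 were measured and 23 passed the filter, and 21 of these had a difference above 0, against 44.3% of all genes above the filter. Their median difference was 0.12, and none reached 1.5-fold. Part of this list belongs to the lipogenic and triglyceride genes already known to be higher on this array. The list was also chosen with earlier results of these data known, so the count is no independent support for a rise of these genes. Elovl6, which elongates palmitate, was at 9.65 in KO and 9.34 in WT (0.31). Agpat1, which acylates lysophosphatidate, was at 6.17 in KO and 5.87 in WT (0.30). Scd1, the stearoyl-CoA desaturase, was at 12.4 in KO and 12.1 in WT (0.25), and Gpam, which starts glycerolipid synthesis from acyl-CoA, differed by 0.22. Of the 5 measurable Acsl, Acsm and Acss3 genes, 2 were above 0 and 3 below. They are too few to show or exclude such a one-sided pattern, and the difference between both lists was not tested.

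Genes of arachidonate handling and lysophospholipid remodelling, listed beside Acsl4, went both ways. Of 13 genes, 9 passed the filter, with 5 above 0, 4 below and a median of 0.12. Lpcat1, a lysophosphatidylcholine acyltransferase, differed by 0.29 and is counted among the 5 above 0. It was below the filter in WT and passed only through its KO value, and without it the median would be lower. Below the filter on both arrays were Lpcat2, Lpcat4, Mboat1 and Mboat2. Their differences, from -1.01 for Lpcat2 to 0.49 for Mboat2, are not read here, though Lpcat2 at 4.62 in WT fell just short of the filter. Pla2g4a, the phospholipase that releases arachidonate, was at 4.77 in KO and 5.03 in WT (-0.25). Fads1, the desaturase that makes arachidonate, was at 10.6 in KO and 10.4 in WT (0.23), and Gpx4, the peroxidase that protects membrane lipids, differed by 0.17. The conjugation and propionate list, which was not limited to enzymes that use Acsm or Acss3 products, had 9 genes, all above the filter. Of these, 2 were above 0 and 7 below, with a median of -0.06. Its largest differences were 0.25 for Baat, which couples bile acids to taurine and glycine, and -0.20 for Keg1, a glycine acyltransferase family gene with 2 probe sets at -0.35 and -0.05. Acad8, an acyl-CoA dehydrogenase of valine breakdown, differed by -0.11, and Mmut, the last enzyme of propionate entry into the citric acid cycle, by -0.09.

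**Figure D3:**
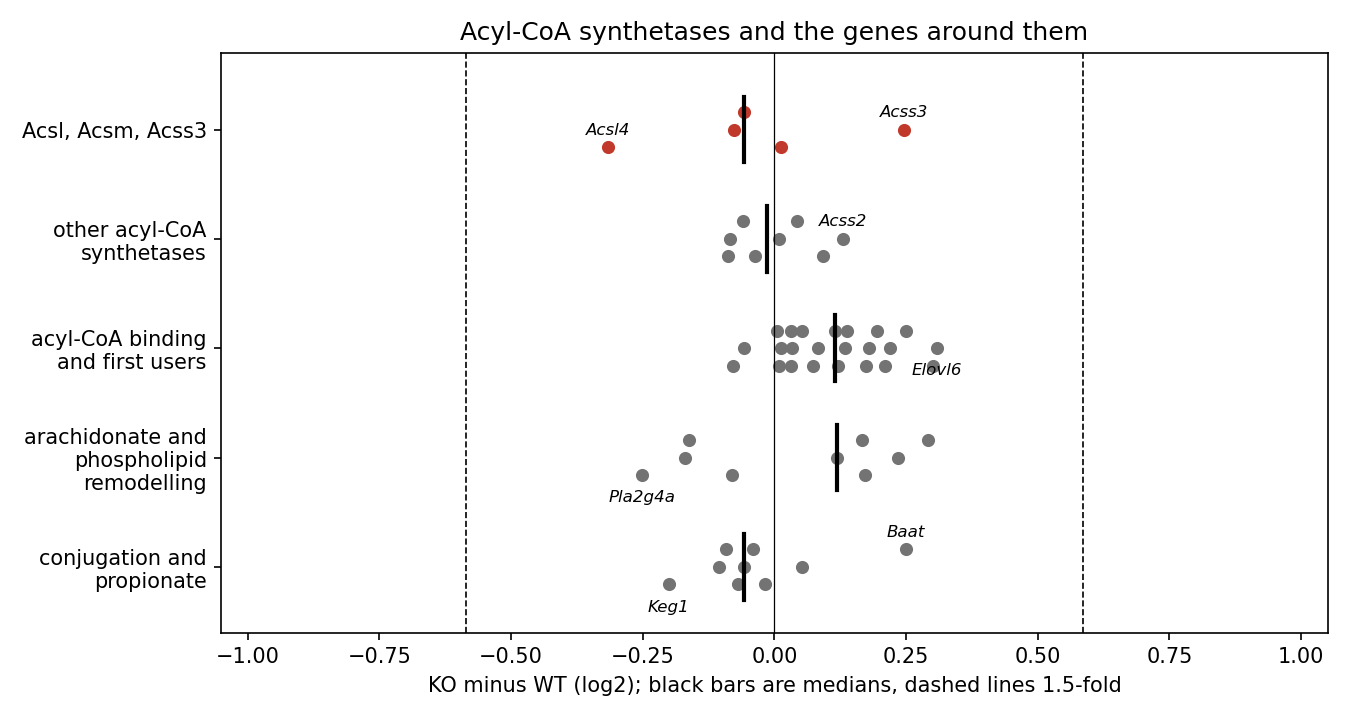
Difference KO minus WT (log2, horizontal axis) of the genes above the filter in each list, 1 point per gene from 1 array per genotype, with list medians as black bars and 1.5-fold as dashed lines. No gene above the filter in these lists lies past 1.5-fold. Of the acyl-CoA binding and first-user genes, a list chosen with earlier results of these data known, 21 of 23 lie above 0.

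Markers of cell types that liver tissue can hold are given because Acsl4 is also expressed by cells other than hepatocytes. All 12 macrophage and Kupffer cell markers were above the filter and lower in KO, with a median of -0.47 and differences between -0.81 and -0.09, and 3 were lower by 1.5-fold or more, where 2.45% of all genes were. Their summed linear signal was 1665 in KO and 2394 in WT. All 12 sinusoidal endothelial markers were lower as well, with a median of -0.51 and differences between -0.83 and -0.25, and 5 were past 1.5-fold, or 4 after quantile normalization again or median subtraction and 3 after the loess fit. Their sum was 2393 in KO and 3366 in WT. Both lists keep 12 of 12 below 0 under each of the other scalings tried. Of all 11090 genes above the filter, 6176 were below 0. The marker lists were chosen with earlier results of these data known, so the marker counts are no independent support for lower signals in KO. Of 8 stellate cell markers 6 were lower (median -0.18, sum 1692 in KO and 1917 in WT), with Col1a1 at 0.22 and Des at 0.93. Des was below the filter in WT, passed it only through its KO value, and dropped below it where each gene was given its brightest probe set, which left 0 stellate markers past 1.5-fold. No marker was at 0, since RMA values have no true zero. The part of these cells in the Acsl4 value was not tested, and in pooled tissue RNA fewer cells of a type and less RNA per cell cannot be told apart.

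Hepatocyte markers were bright on both arrays, as the tissue label has it. All 10 hepatocyte markers, Alb among them at 13.28 in KO and 13.30 in WT, were above the filter, with differences between -0.13 and 0.10, a median of -0.01 and summed signals of 49466 in KO and 49796 in WT. Acsl5, Acsm1 and Acsm5 lay inside the range of the hepatocyte markers, whereas Acsl4 and Acss3 lay outside it on opposite sides. These markers are much brighter, with a mean log2 signal of 12.0 on each array, against mean signals of 7.90 for both Acsl4 and Acss3. Since differences scatter less among bright genes, lying outside this range does not set Acsl4 and Acss3 apart from hepatocyte genes. Of the adipocyte markers 2 of 6 measured passed the filter, Fabp4 (-0.25) and Lipe (0.07), with sums of 215 in KO and 241 in WT. Of the erythroid markers 3 of 5 measured passed, with sums of 99.2 in KO and 113 in WT. Slc4a1 and Klf1 passed only through their WT values, and Tfrc, above the filter on both arrays, was at 5.78 in both.

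**Figure D4:**
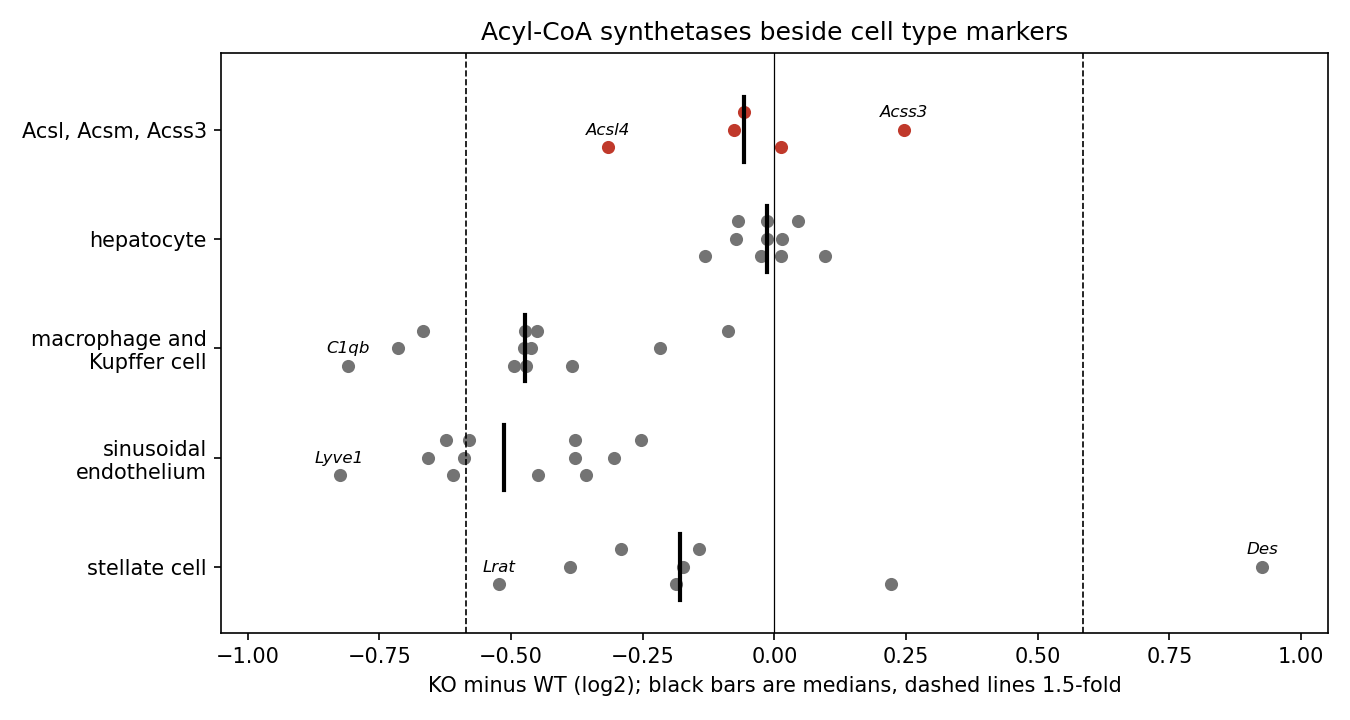
Difference KO minus WT (log2, horizontal axis) of the 5 measurable acyl-CoA synthetases (red) and of cell type markers above the filter (grey), 1 point per gene from 1 array per genotype, with medians as black bars and 1.5-fold as dashed lines. Acsl4 at -0.32 falls between the median of the hepatocyte markers (-0.01) and the medians of the macrophage (-0.47) and endothelial (-0.51) markers. It lies further below 0 than the median of the stellate cell markers (-0.18). What this placement means was not tested.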

How the data were processed

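Liver RNA (100 ng, pooled from 3 mice per genotype) was labelled with biotin and hybridised to Affymetrix arrays, 1 for KO and 1 for WT, per the labels' protocols and design text. The deposited values are log2 signals, 1 for each probe set on each array. The tools listed in the submitters' processing notes are RMA and Affymetrix Expression Console 1.3.0. RMA compresses differences of dim probe sets and removes any shift common to all transcripts. The sources used here name no genome build for the probe sets. No scanner intensities or detection calls were used, and the number of arrays limits the precision.

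Of 41345 probe sets, 23521 had 1 gene symbol in the platform annotation, 1814 had several and 16010 none. Gene values were means of a gene's probe sets, computed with Python 3.11.15 and pandas 2.3.3. Genes entered where the higher array reached 4.68, and differences are KO minus WT. With 1 array per genotype no test was made; genes were counted at 1.5-fold (0.58 on the log2 scale). The counting step was tested on simulated data. Alternatives were quantile normalization again, a loess fit (span 0.4, R 4.3.3), the brightest probe set, subtraction of the median difference, other filters and other fold thresholds. All members were named, and from each list the 4 genes above the filter with the largest absolute difference and any past 1.5-fold; of the cell type markers, mostly counts are given, and Alb and Des serve as examples. The members and lists were chosen with earlier results of these data known.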

Additional observations from a re-analysis of the deposited data

How the results depend on the processing

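No paired analysis was possible because each genotype had 1 array. The 7 genes' differences kept their sign under quantile normalization again, the loess fit and median subtraction. Taking the brightest probe set could change only Acsl6, the only gene of the 7 with 2 probe sets, and its sign stayed the same. For the other genes that setting returns the main value by construction. Acsl4 ranged from -0.32 to -0.28, Acss3 from 0.25 to 0.28, Acsl5 from 0.01 to 0.04, Acsm1 from -0.06 to -0.03 and Acsm5 from -0.08 to -0.05. Below the filter, Acsl6 ranged from 0.05 to 0.15 and Acsm2 from -0.41 to -0.36. The median of the measurable members ranged from -0.06 to -0.03. No member was past the threshold in either direction under any alternative run, including no filter and a lower threshold (0.322 on the log2 scale). The higher filter and the 2-fold threshold could only return 0, since the main run already had 0. At the lower threshold Acsl4 just fell short, at -0.317. With 734 of 11090 genes higher and 1151 lower at that threshold, 0 of 5 members is no result about these genes. Counts over all genes moved by construction. Without a filter 572 genes were higher and 576 lower, with the filter at the 75th percentile 18 and 61, at the lower threshold 734 and 1151, and at 2-fold 15 and 34, beside 163 and 272 at 1.5-fold. The median of the other acyl-CoA synthetases changed sign after the loess fit and median subtraction (both 0.01), as did the hepatocyte median after median subtraction (0.01). The first-user list kept 20 or 21 of 23 genes above 0.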

Other observations

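These genes were chosen after their values were seen. Thumpd1, which lies inside the cluster between Acsm4 and Acsm3 on chromosome 7, was at 6.26 in KO and 6.80 in WT (-0.54). Pdilt, just outside the cluster next to Acsm5, was at 6.05 in KO and 6.46 in WT (-0.41). Eri2, just outside the cluster at the opposite end next to Acsm3, was above the filter and differed by 0.04. Of the genes between Pdilt and Thumpd1, Acsm5 and Acsm1 differed by -0.08 and -0.06, and Acsm2 (-0.38) and Acsm4 (0.00107) were below the filter. Acss1, the mitochondrial acetyl-CoA synthetase gene, had 2 probe sets that disagreed, at -0.58 and 0.24, and its mean was below the filter on both arrays, so that with its brighter probe set alone it would pass the filter and lie just short of 1.5-fold.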
